A study of Mus musculus with 11 samples.

Results

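PYHIN proteins are a family of interferon-inducible proteins that pair a pyrin domain with HIN domains, which bind nucleic acid. In mouse their genes lie side by side on chromosome 1. Aim2, the best known member, senses DNA in the cytoplasm and assembles an inflammasome with the adaptor Pycard, while Ifi204 and Ifi203 have been linked to DNA-driven interferon responses. For several of the others, among them Ifi206, Ifi207, Ifi208, Ifi209 and Ifi211, much less is known. The 10 members described here are Ifi203, Ifi204, Ifi205, Ifi206, Ifi207, Ifi208, Ifi209, Ifi211, Mndal and Aim2, out of 31053 genes in the deposited count tables. They were chosen by family membership, around Ifi208, whose level in p21mTert lungs against p21Het lungs was known from an earlier reading of these data. That difference of Ifi208 is therefore given as a description, with no test.

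Whole lungs were dissociated and profiled with the 10x Genomics droplet method, which reads transcripts at their 3′ ends cell by cell, in 11 libraries, for a study whose title concerns induction of mTert (mouse telomerase reverse transcriptase) in cells that express p21 (gene Cdkn1a). The groups were 1 WT library (+/+), 3 p21Het libraries (p21 heterozygotes, +/-), 5 p21mTert libraries (+/mTert) and 2 p21mTertCD libraries (+/mTertCD, an allele that the labels do not spell out). By these labels every group but WT carries 1 p21 allele that is not wild type. Per the age labels the mice were 18 months old, except p21Het_1 at 19 months and p21mTert_1 at 20 months, while the titles give 18 months for these as well. WT, p21Het_1 and p21mTert_1 belong to a first deposit, and 8 libraries were added later. WT, with 1 library, entered no comparison between genotypes. Nothing in the labels says that the libraries come from separate mice, so p-values measure the spread between libraries.

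The filter kept 69266 of 81983 barcodes, those with 1000 to 30000 UMIs (unique molecular identifiers) and at most 14% mitochondrial UMIs. Libraries held 42038434 to 85988955 UMIs before the filter, and kept cells had a median of 4133 to 6454 UMIs. Mitochondrial UMIs made up a median of 6.30% to 6.58% of a cell in the first deposit against 2.82% to 4.28% later. Cells were assigned to 20 lineages by marker genes, and every marker of each lineage was detected in its cells. The gate uses these same markers, so their high level there is no test of it. Pairs of libraries shared 4 to 20 cell barcodes. The tagged gene Cdkn1a had 155 CPM in WT over all cells, against 136 to 187 for p21Het, 124 to 160 for p21mTert, and for p21mTertCD 118 and 174, so its 3′ counts did not separate the genotypes and check no label. CPM is a gene's UMIs in a library's cells of 1 lineage, scaled to 1000000 UMIs in all, with no length correction. In such sums a smaller number of expressing cells and less RNA per cell cannot be told apart.

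The 10 genes spanned 681 kb of chromosome 1, from 173350879 to 174031810 in GRCm38, from Aim2 to Ifi205. Some of them are alike in sequence, and the stretches upstream of their starts are shown first. Whether likeness there bears on the levels below was not tested. Of the 9 members with an entry in the RefSeq promoter table (GRCm38.p6), 7 held the core of an interferon-stimulated response element within 250 bases before to 50 after a start. The letters searched on both strands were GAAA, any 2 bases, then GAAA again. By entry, 8 of the 11 entries of the members held it, and the same letters were found in 3.44% of all 32851 promoter entries of that length. The interferon-gamma element TTCNNNGAA, present in 8.30% of entries, was not found in these windows of the members. Below are the 150 bases before the start of 7 members, 5′ to 3′, with the element in capitals.
Ifi208 (chr1:173673515-173673664, plus strand): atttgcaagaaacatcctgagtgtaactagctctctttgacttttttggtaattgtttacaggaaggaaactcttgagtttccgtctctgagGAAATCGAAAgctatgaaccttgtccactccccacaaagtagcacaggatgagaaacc
Ifi206 (chr1:173491319-173491468, minus strand): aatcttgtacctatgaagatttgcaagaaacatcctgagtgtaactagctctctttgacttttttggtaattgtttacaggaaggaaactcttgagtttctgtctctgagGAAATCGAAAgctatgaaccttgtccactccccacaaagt
Ifi211 (chr1:173913047-173913196, minus strand): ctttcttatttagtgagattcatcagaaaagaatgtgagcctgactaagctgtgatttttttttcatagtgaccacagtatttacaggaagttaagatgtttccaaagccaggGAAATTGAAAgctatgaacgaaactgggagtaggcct
Ifi205 (chr1:174031756-174031905, minus strand): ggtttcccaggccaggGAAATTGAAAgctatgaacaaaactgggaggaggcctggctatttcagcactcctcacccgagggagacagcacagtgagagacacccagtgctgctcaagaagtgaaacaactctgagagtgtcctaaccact
Ifi203 (chr1:173942493-173942642, minus strand): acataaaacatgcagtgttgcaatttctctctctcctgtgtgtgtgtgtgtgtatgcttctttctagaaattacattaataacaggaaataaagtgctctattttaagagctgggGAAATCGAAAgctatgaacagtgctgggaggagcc
Ifi209 (chr1:173630709-173630858, plus strand): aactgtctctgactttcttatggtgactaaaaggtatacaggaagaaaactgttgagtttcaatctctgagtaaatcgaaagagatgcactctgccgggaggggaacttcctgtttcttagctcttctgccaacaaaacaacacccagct
Aim2 (chr1:173420454-173420603, plus strand): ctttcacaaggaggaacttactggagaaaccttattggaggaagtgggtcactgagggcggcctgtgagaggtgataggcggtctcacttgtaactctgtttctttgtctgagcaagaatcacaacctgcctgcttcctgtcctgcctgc
Ifi209 and Aim2 held no match to these letters. Nor did the other of the 2 entries of Ifi203, which is not shown. The promoters of Ifi206 and Ifi208 were 87.5% identical over their aligned 300-base windows, with gaps counted as differences, and carried the same element. Ifi207 and Ifi211 were 85.9% identical, and 1 of 2 entries of Mndal was 90.7% identical to 1 of 2 entries of Ifi203.

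The likeness extends to the 3′ ends, where these libraries were read. Of the 50-base stretches in the last 500 bases of its transcripts, Ifi211 had 22.6% found in no other gene's transcripts, Ifi209 52.2%, Ifi205 60.4%, Ifi206 74.0%, Mndal 74.1% and Ifi208 77.2%. The shared stretches matched Ifi205 for Ifi211, Ifi214 for Ifi209, Ifi211 for Ifi205 and Ifi213 for Ifi208. Ifi203, Ifi207, Ifi204 and Aim2 had 90.9%, 96.5%, 98.2% and 99.5%. Mndal also overlaps both Ifi211 and Ifi203 on the same strand in the annotation. Counts of the first 6 of these genes, and of Ifi203 where it overlaps Mndal, are therefore uncertain. Reads from shared stretches may be given to the wrong copy or lost, and how much this differs between genes was not measured.

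The distribution over lung cells varied among the members, which were not tested against each other. Ifi203 and Mndal had similar means, with 264 and 278 CPM in B cells and 188 and 199 in classical monocytes. Over the 13 lineages with at least 20 cells in every library, 7 of 10 members had a highest lineage that lay above the second highest beyond the spread of the 11 libraries (exact 2-sided paired sign-flip test on log2(CPM + 1), adjusted over 10 members). The lineages were ranked on the same libraries, with the genotypes pooled. The exceptions were Ifi208, Ifi209 and Aim2. By mean CPM within each genotype, the highest lineage was the same in all 4 genotypes for 5 members, Ifi204, Ifi205, Ifi206, Ifi207 and Ifi211, and not for the other 5.

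**Figure D1:**
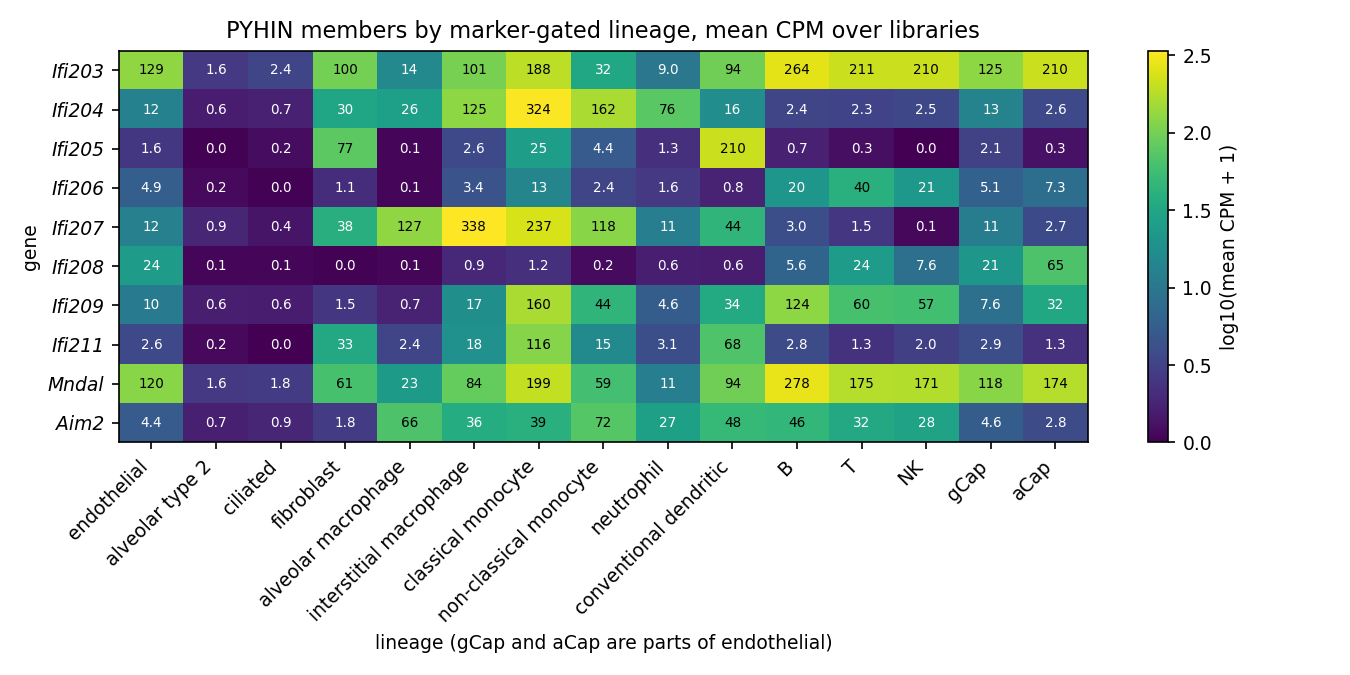
Mean CPM of each PYHIN member (rows) in marker-gated lineages (columns) over the libraries, with the colour on a log10(CPM + 1) scale. Ifi204 and Ifi211 peak in classical monocytes, Ifi207 in interstitial macrophages and Ifi205 in conventional dendritic cells, while Ifi208 is seen in endothelial cells and lymphocytes.

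Monocytes and macrophages held the DNA-binding Ifi204 and its relative Ifi207. Ifi204 averaged 324 ± 93.6 CPM (SD, n = 11) in classical monocytes and 162 ± 43.0 in non-classical monocytes, and was higher in the first in 11 of 11 libraries (exact test, adjusted p = 0.00326). Interstitial macrophages followed with 125 ± 39.2 CPM. Ifi207 was highest in interstitial macrophages, with 338 ± 87.1 CPM against 237 ± 46.1 in classical monocytes (9 of 11 libraries, exact test, adjusted p = 0.0114). Both genes averaged at most 3.01 CPM in B, T and NK cells.

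Ifi205 and Ifi211, whose 3′ ends overlap in sequence, were found in antigen-presenting and stromal cells. Ifi205 averaged 210 ± 61.2 CPM (SD, n = 11) in conventional dendritic cells and 76.6 ± 54.2 in fibroblasts, a log2 difference of 1.63 seen in 11 of 11 libraries (exact test, adjusted p = 0.00326). Ifi211 averaged 116 ± 43.2 CPM in classical monocytes and 67.6 ± 17.9 in conventional dendritic cells (10 of 11 libraries, exact test, adjusted p = 0.00488).

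Ifi203, Mndal and Ifi206 had their highest pooled means in lymphocytes. Ifi203 averaged 264 ± 42.0 CPM (SD, n = 11) in B cells and 211 ± 33.4 in T cells (9 of 11 libraries, exact test, adjusted p = 0.0153), with 210 ± 31.0 in NK cells. Mndal, its neighbour, averaged 278 ± 38.2 CPM in B cells and 199 ± 44.6 in classical monocytes (10 of 11 libraries, exact test, adjusted p = 0.00977). For both genes this order was not that of p21mTertCD, whose mean in classical monocytes was 295 CPM of Ifi203 and 271 of Mndal, against 264 and 261 in B cells. Classical monocytes were the higher of the pair for each gene in 1 of 2 p21mTertCD libraries and in none of the 9 others. The second lineage of Mndal also varied, with NK cells (167 CPM) and T cells (161) next after B cells in p21Het. Ifi206 was highest in T cells, at 39.7 ± 14.9 CPM against 21.5 ± 8.84 in NK cells, with 11 of 11 libraries higher (exact test, adjusted p = 0.00326).

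Ifi209 and Aim2 did not pass this test. Ifi209 averaged 160 ± 56.5 CPM in classical monocytes and 124 ± 27.6 in B cells (8 of 11 libraries, exact test, adjusted p = 0.0537). Classical monocytes were the higher of the pair in 5 of 5 p21mTert and 2 of 2 p21mTertCD libraries, in 1 of 3 p21Het libraries and not in WT, and this split by genotype was not tested. Aim2 averaged 72.0 ± 12.2 CPM in non-classical monocytes and 65.6 ± 7.86 in alveolar macrophages (6 of 11 libraries, exact test, adjusted p = 0.227). Its means in the other immune lineages tested ran from 26.5 to 48.0 CPM, and endothelial cells averaged 4.36. Alveolar type 2 and ciliated cells averaged at most 2.41 CPM of any member.

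Ifi208 had a lineage pattern unlike that of its myeloid relatives. It averaged 23.9 ± 15.3 CPM (SD, n = 11) in endothelial cells, 23.8 ± 8.70 in T cells, 7.62 ± 7.32 in NK cells and 5.57 ± 4.96 in B cells. Which of endothelial and T cells was higher differed with the genotype that chose Ifi208. Endothelial cells were higher in WT, in 3 of 3 p21Het libraries and in 1 of 2 p21mTertCD libraries, and in 0 of 5 p21mTert libraries, so the pooled means describe no single genotype. In the myeloid lineages it averaged at most 1.23 CPM. Within endothelium, cells with the markers of aCap (aerocytes, the Car4 and Ednrb capillary cells that face the air space) averaged 65.3 CPM in the 10 libraries with at least 20 such cells, and gCap cells (general capillary, with Gpihbp1, Kit, Plvap and Aplnr) averaged 20.6 CPM over 11 libraries.

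In the gCap cells, Ifi208 was low in every p21mTert library. It had 43.4 CPM in WT (exact 95% Clopper-Pearson interval 32.4 to 57.0, counting error only). The p21Het libraries had 49.7, 29.6 and 28.9 CPM, the p21mTert libraries 11.7, 2.14, 2.83, 4.32 and 4.59, and the p21mTertCD libraries 18.7 and 31.1. All 5 p21mTert libraries lay below all 6 others. The p21mTert mean was 5.12 ± 3.84 CPM (SD, n = 5). That is 14.2% of the p21Het mean of 36.1 ± 11.8 (SD, n = 3). That share was 23.6% in the first deposit and 11.9% in the later one. These values rest on 52 UMIs in 5 p21mTert libraries and 237 in 3 p21Het libraries.

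B cells showed the same order at a lower level. Ifi208 had 8.86 CPM in WT (95% interval 6.99 to 11.1), then 12.8, 10.1 and 12.1 in p21Het, and 0.964, 1.10, 1.24, 1.54 and 0.783 in p21mTert. The p21mTertCD libraries stood at 2.65 and 9.13 CPM, the lower of them with 104 B cells and 2 UMIs. All p21mTert libraries lay below the 6 others, and their mean was 9.64% of the p21Het mean (7.54% in the first deposit, 10.5% in the later one). The summed level of the 8 non-classical monocyte markers, all detected, was 567 to 768 CPM in the B cells of p21mTert and 524 to 560 in p21Het. Nr4a1, an immediate early gene, made up most of it, and the part of this difference in the result was not tested.

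T cells kept more of the transcript. Ifi208 had 30.9 CPM in WT (95% interval 26.6 to 35.6), 36.7, 22.6 and 30.7 in p21Het, and 18.3, 17.9, 15.4, 17.1 and 20.2 in p21mTert. The p21mTertCD libraries had 14.3 and 38.1. The p21mTert libraries lay below the 3 p21Het libraries and overlapped the p21mTertCD pair, at 59.2% of the p21Het mean (49.9% in the first deposit, 66.2% in the later one). The share was 47.9% in T cells with a Cd4 UMI and 54.0% in those with a Cd8a or Cd8b1 UMI. In the T cells of p21mTert the 8 alveolar type 1 markers summed to 171 to 235 CPM against 145 to 152 in p21Het, most of it Hopx, a gene that T cells also express. The part of this difference was not tested.

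In aCap cells, where Ifi208 was highest, the genotypes overlapped. The values were 70.4 CPM in WT (95% interval 43.0 to 109), 101 and 50.3 in p21Het, and 73.6, 40.8, 52.2, 37.5 and 86.5 in p21mTert. The p21mTertCD libraries had 25.3 and 74.0. The third p21Het library had 11 aCap cells and was left out. The p21mTert mean was 76.9% of the p21Het mean, 73.0% in the first deposit and 108% in the later one, where p21Het has 1 library. NK cells had few UMIs, with 6.41 to 15.4 CPM in p21Het (16 UMIs in all) and 0 to 5.17 in p21mTert (6 UMIs). Whether the difference between p21mTert and p21Het differed among these lineages was not tested.

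**Figure D2:**
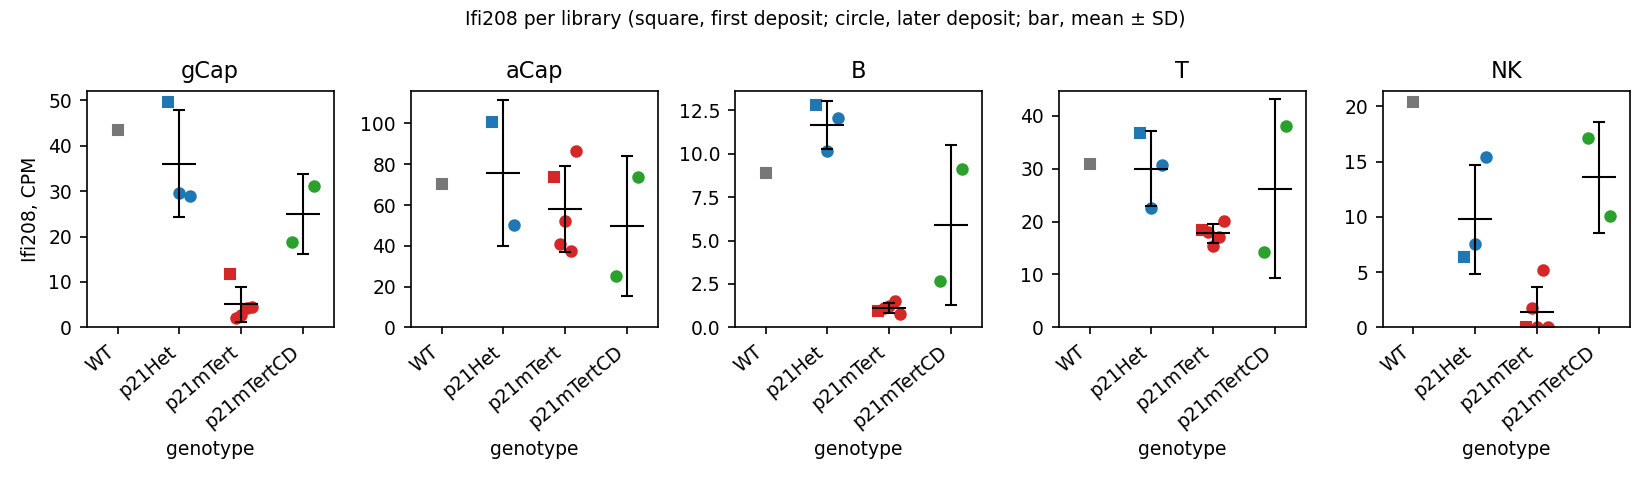
Ifi208 in CPM for each library by genotype in gCap, aCap, B, T and NK cells, each panel on its own linear axis. Squares are the first deposit, circles the later deposit, and bars mean ± SD. The 5 p21mTert libraries lie below all others in gCap, B and NK cells and overlap p21Het in aCap cells.

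Between p21mTertCD and p21Het, Ifi208 was not called in endothelial, B or T cells by the edgeR quasi-likelihood test. In the other fitted lineages it did not pass the filter on low counts and was not tested. The p21Het libraries also took part in the choice of Ifi208. The test is therefore not independent of that choice, and nothing is concluded from it. The log2 fold change was -0.52 (SE 0.30, adjusted p = 1.00) in endothelial cells, -0.61 (SE 0.34, adjusted p = 1.00) in B cells and -0.10 (SE 0.33, adjusted p = 0.916) in T cells. Neither p21mTertCD pair was tight: the lower library had 16.5 CPM in endothelial cells and the higher 32.7, with 14.3 and 38.1 in T cells. Without p21mTertCD_2 the T cell log2 fold change was -1.02, and without p21mTertCD_1 it was 0.47, so the pair decides the direction there. Each of these fits has 1 p21mTertCD library, which is assumed to vary like the libraries of the other groups.

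Ifi206, alike to Ifi208 in promoter, and Ifi213, alike at the 3′ end, were not called in p21mTert against p21Het. Ifi206, with the similar promoter shown above, had 10.1 to 29.3 CPM in the B cells of p21Het and 12.6 to 24.8 in p21mTert (log2 fold change -0.13, SE 0.25, adjusted p = 1.00, edgeR). In T cells Ifi206 had 22.2 to 43.1 CPM in p21Het and 29.2 to 46.9 in p21mTert (log2 fold change 0.15, SE 0.25, adjusted p = 0.999, edgeR). In NK cells its log2 fold change was 1.03 (SE 0.36, unadjusted p = 0.0097, edgeR, not called). There, 4 of 5 p21mTert libraries lay above all p21Het libraries. Ifi213, a PYHIN gene outside the 10 that shares 3′ sequence with Ifi208, had 18.3 to 30.9 CPM in the endothelial cells of p21Het and 15.8 to 26.7 in p21mTert (log2 fold change -0.21, SE 0.16, adjusted p = 1.00, edgeR). Its log2 fold change was -0.14 in B cells, 0.26 in T cells and 0.90 in classical monocytes (SE 0.23, adjusted p = 0.259, edgeR). Ifi202b, another PYHIN gene, was nearly absent, with 3 UMIs in WT, 0 in p21Het, 5 in p21mTert and 2 in p21mTertCD over all cells.

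By pattern over the 13 lineage means, the genes outside the family most like Ifi208 were Gbp4 (Pearson r = 0.936 of log2(CPM + 1)), St6galnac3 (0.913), 4833403J16Rik (0.904), Dnah8 (0.894) and Prss12 (0.894). Gbp4 is an interferon-inducible GTPase. Over the 11 libraries within endothelial cells they were Tfdp2 (r = 0.930), Hcls1 (0.911), Dhx40 (0.904), Prkd1 (0.883) and Cd300lg (0.877). That second ranking used the endothelial levels of Ifi208 whose genotype difference chose it, so genes that are low in p21mTert lead it by construction, and nothing about the genotypes is read from it. Its 11 points also share their libraries' depth and deposit, and both rankings are the best of all genes, given with no test.

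The other 9 members were compared between genotypes on UMIs summed per library and lineage, with edgeR's quasi-likelihood test in 11 lineages and Benjamini-Hochberg adjustment over all genes of a lineage. In p21mTert against p21Het, 3 of 75 tests of these members passed an adjusted p of 0.05, where 0.0296% of all 108043 gene tests did. In p21mTertCD against p21Het, 8 of 78 tests passed, where 0.102% of all gene tests did. The 78 include tests of Ifi208, none of which passed. In p21mTert against p21mTertCD, 0 of 75 passed, where 0.0639% of all gene tests did. Of those 75, 18 had an unadjusted p under 0.05, where 6.3% of all gene tests did. DESeq2 called 5, all lower in p21mTert, where it called 0.205% of the genes it tested. Every edgeR call in these 11 lineages was in classical monocytes, and was higher in p21mTert or p21mTertCD than in p21Het. Whether the difference of p21mTert from p21Het itself differed between classical monocytes and T cells was tested for the 9 members by exact 2-sided permutation of the genotypes over each library's difference in log2(CPM + 1). None passed after adjustment over the 9, with the lowest adjusted p of 0.161 for Ifi203 and Ifi207, each at the smallest p of 0.0357 that 5 against 3 libraries allow. A member alone at that p could not pass the adjustment. In T cells, Ifi204, Ifi205, Ifi207 and Ifi211 also averaged at most 2.26 CPM. This test therefore could not decide the question, and it left out the p21mTertCD calls. Whether the calls are particular to classical monocytes is not shown. The comparisons share libraries, so they are not independent of each other.

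Classical monocytes of p21mTertCD lungs had more of nearly the whole family. All 8 called members were higher, among 9 that passed the filter on low counts, where 1.01% of 8949 genes were called higher. Their log2 fold changes had a median over the 9 of 1.24, beside -0.02 over all genes. Ifi208, at 0.741 to 4.17 CPM in p21Het, 0 to 0.507 in p21mTert, then 3.59 and 1.04 in p21mTertCD, did not pass the filter. The change was largest in Ifi206, the T cell member. It had 9.49, 2.22 and 9.12 CPM in p21Het, 2.18 to 15.5 in p21mTert, then 28.8 and 34.2 in p21mTertCD, with 8.10 in WT (log2 fold change 2.08, SE 0.33, adjusted p = 0.00379, edgeR). The p21mTertCD libraries lay above all 9 others.

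Ifi205 and Ifi211 followed. Ifi205 had 13.7, 6.66 and 12.3 CPM in p21Het, 35.0, 30.5, 21.8, 21.6 and 35.9 in p21mTert, then 36.2 and 48.7 in p21mTertCD, with 11.1 in WT. The p21mTert and p21mTertCD libraries all lay above p21Het and WT, by a log2 fold change over p21Het of 1.44 (SE 0.22, adjusted p = 0.0239, edgeR) in p21mTert and 1.95 (SE 0.24, adjusted p = 4.95e-04) in p21mTertCD. Ifi211 had 72.8, 49.6 and 80.2 CPM in p21Het, 111, 131, 118, 107 and 129 in p21mTert, then 178 and 196 in p21mTertCD, with 99.3 in WT. It too separated from p21Het in both, by 0.86 (SE 0.14, adjusted p = 0.0317, edgeR) and 1.53 (SE 0.16, adjusted p = 2.36e-04).

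Ifi203, the third member called in both comparisons, had 135, 105 and 124 CPM in p21Het, 194, 170, 240, 198 and 193 in p21mTert, then 296 and 294 in p21mTertCD, with 119 in WT. The 3 groups did not overlap, and WT lay within p21Het. Its log2 fold change over p21Het was 0.76 (SE 0.13, adjusted p = 0.0319, edgeR) in p21mTert and 1.36 (SE 0.15, adjusted p = 2.45e-04) in p21mTertCD. These 3 calls of p21mTert over p21Het stood where 0.134% of genes were called higher. The 9 members tested had a median log2 fold change of 0.58, beside 0.01 over all genes. Of the 9, 7 had an unadjusted p under 0.05 (edgeR), where 663 of 8949 genes did. DESeq2 called 5, and its share over all genes is not given for this comparison.

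**Figure D3:**
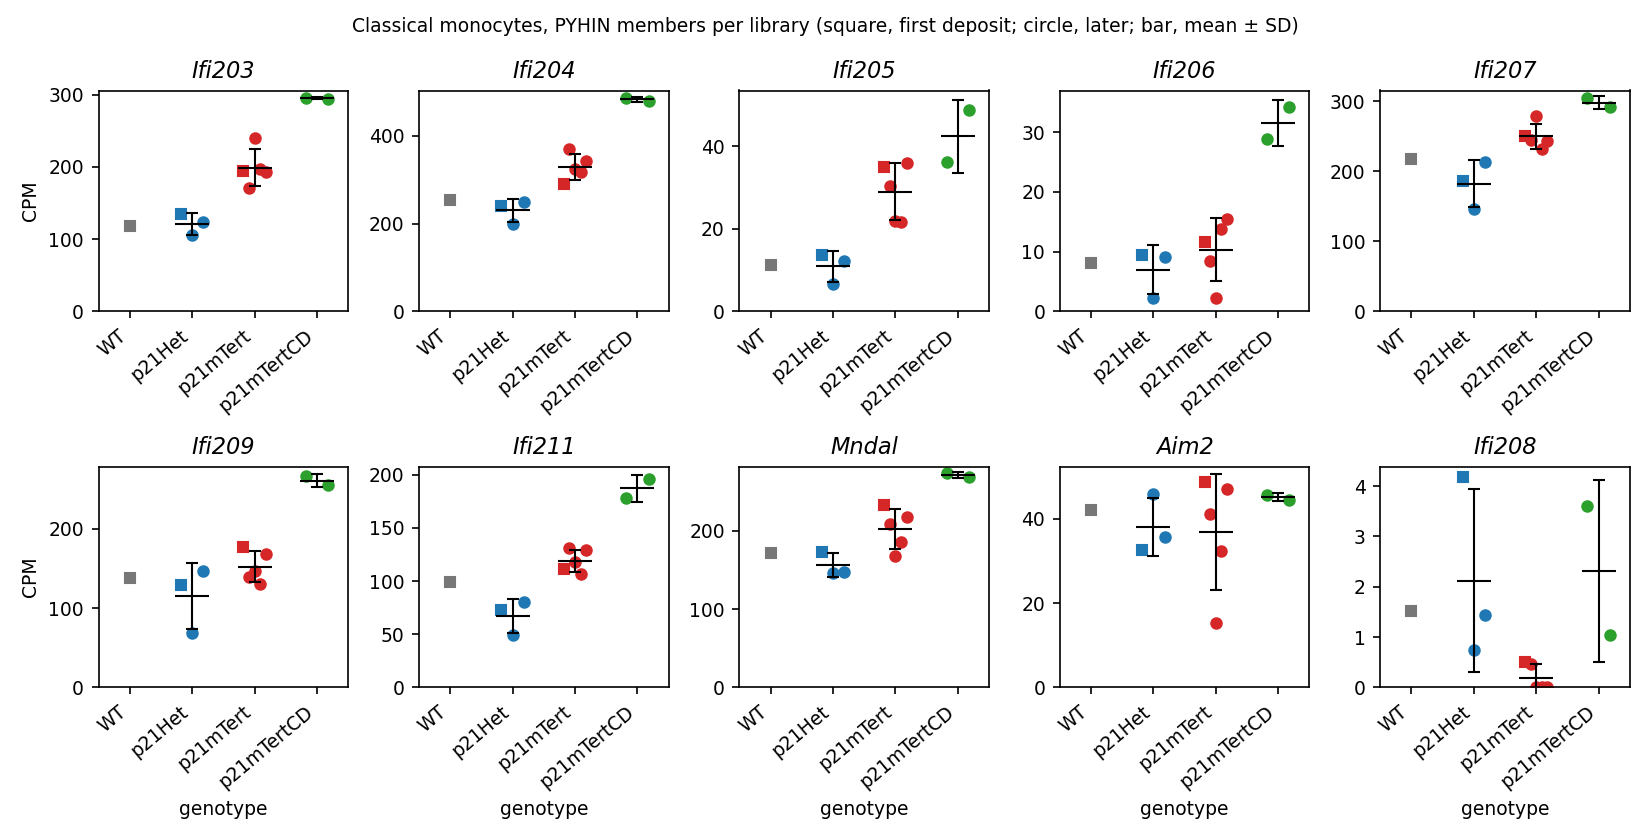
CPM of each PYHIN member in classical monocytes for each library by genotype, each panel on its own linear axis from 0. Squares are the first deposit, circles the later one, bars mean ± SD. In 8 of the panels both p21mTertCD libraries lie above all WT and p21Het libraries. Ifi203, Ifi204, Ifi205, Ifi207 and Ifi211 are also higher in the 5 p21mTert libraries than in every p21Het library. How many of all genes separate in these ways was not counted, so the panels are a description.

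Ifi204, Ifi209, Mndal and Ifi207 were called in p21mTertCD against p21Het and not in p21mTert against p21Het, and p21mTert against p21mTertCD was not called for them either. Ifi204 had mean levels of 230 ± 26.7 CPM for 3 p21Het libraries, 329 ± 29.7 for 5 p21mTert libraries and 484 ± 5.32 for the p21mTertCD pair, all ± SD (log2 fold change of p21mTertCD over p21Het 1.15, SE 0.14, adjusted p = 4.95e-04, edgeR). In p21mTert against p21Het its adjusted p was 0.0969, with 5 of 5 libraries above all p21Het libraries. Ifi209 rose by 1.24 (SE 0.21, adjusted p = 0.00592, edgeR), Mndal by 0.88 (SE 0.14, adjusted p = 0.00451) and Ifi207 by 0.79 (SE 0.15, adjusted p = 0.0169). The 1 WT library lay above the p21Het mean for each of them. It had 254 CPM of Ifi204, 138 of Ifi209, 172 of Mndal and 217 of Ifi207, against p21Het means of 230, 115, 156 and 182. Aim2 was the exception, with means ± SD of 38.1 ± 6.97 CPM for p21Het, 36.9 ± 13.7 for p21mTert and 45.2 ± 0.879 for p21mTertCD (0.37, SE 0.24, adjusted p = 0.993, edgeR). Between p21mTert and p21mTertCD, all 9 members had a lower mean fitted level in p21mTert, with a median log2 fold change of -0.57, and 0 were called by edgeR, where 0.145% of genes were called lower. Of the 9, 7 had an unadjusted p under 0.05 there, where 6.66% of genes did, and DESeq2 called 5.

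The calls differed in how far they rested on single libraries. In p21mTertCD against p21Het, 5 of the 8 members, Ifi203, Ifi204, Ifi205, Ifi206 and Ifi211, were still called without p21mTertCD_1, and 7 without p21mTertCD_2, each time with 1 p21mTertCD library assumed to vary like the other groups. Against p21Het, the 3 calls of p21mTert fell to 0 without p21Het_2, p21Het_3, p21mTert_2 or p21mTert_5 and to 1, Ifi205, without either p21mTertCD library, while fold changes of all 9 stayed above 0 each time. The 0 calls of p21mTert against p21mTertCD became 3 without p21Het_2 and 1 without p21mTert_3. In the later deposit alone the counts were 3, 0 and 8, as with all libraries. Classical monocytes numbered 45 to 441 per library, with the lowest number in p21mTert_3.

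Markers of other cells moved with these groups in part. In the classical monocytes of p21mTertCD the 12 conventional dendritic markers summed to 376 to 405 CPM, against 310 to 360 in p21Het. Of the 12, 11 were detected in p21mTertCD and 12 in p21Het, with Fscn1 at 0 in p21mTertCD and Naaa the most abundant. In p21mTert the 9 alveolar macrophage markers summed to 825 to 1761 CPM against 1899 to 2371 in p21Het, most of it Chil3, which monocytes also express. The part of these differences in the result was not tested. Between p21mTert and p21mTertCD, the classical monocyte markers themselves were lower in p21mTert, at 6213 to 7346 CPM against 8241 to 8382. There were also fewer of these cells, 45 to 203 per library against 219 to 347. The part of both in the lower member levels of p21mTert was not tested. Median UMIs per classical monocyte overlapped between the groups.

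Other interferon genes were called in the same cells and in part elsewhere. Of 35 interferon-stimulated genes in the tables, 32 were tested in classical monocytes and 26 were called higher in p21mTertCD than in p21Het, with 0 lower and a median log2 fold change of 1.41. Of all genes tested there, 1.01% were called higher. Oasl1, Ifit2 and Rtp4 had the largest fold changes, with Rtp4 at 78.5 CPM in p21mTertCD against 17.6 in p21Het (log2 fold change 2.11, SE 0.26, adjusted p = 4.95e-04, edgeR). Over p21Het, p21mTert had 3 of the 32 called higher, Rsad2, Oas3 and Oasl2, with a median of 0.66, where 0.134% of all genes were called higher. Over all genes tested the medians were -0.02 and 0.01. Without p21mTertCD_1 the count of 26 fell to 8, and without p21Het_3 to 15. The count of 3 was 0 without p21Het_3, 5 without p21Het_1, and 1 without p21Het_2 or any 1 p21mTert or p21mTertCD library. In the other lineages, p21mTertCD over p21Het gave 11 of 30 called higher in non-classical monocytes (median log2 fold change 1.34), 2 of 29 in neutrophils (1.56) and 1 of 33 in T cells (0.50). Those calls stood where 0.418%, 0.0268% and 0.0653% of all genes were called higher. In endothelial cells 0 of 33 were called by edgeR (median 1.16), where 0.00858% of genes were, 27 had an unadjusted p under 0.05 and DESeq2 called 12. Fold changes were above 0 for all of the genes tested in non-classical monocytes, neutrophils and endothelial cells and for 32 of 33 in T cells. The remaining lineages had no calls. Alveolar type 2 cells had 22 of 22 above 0 (median 0.58), conventional dendritic cells 21 of 25 (0.34), B cells 22 of 32 (0.31) and NK cells 13 of 16 (0.20). Interstitial macrophages had 18 of 26 above 0 and alveolar macrophages 15 of 24, each with a median of 0.12, and fibroblasts 13 of 28 (-0.06). Neither edgeR nor DESeq2 called any gene of the list in these 7 lineages, where 0 to 5 had an unadjusted p under 0.05. In p21mTert against p21mTertCD, edgeR called 4 of 32 lower in classical monocytes (median log2 fold change -0.74) and 10 of 30 in non-classical monocytes (-1.58). In endothelial cells 4 of 33 were lower (-1.11), and in neutrophils 2 of 29 (-1.06). Over all genes of these lineages, 13 of 8949, 39 of 8606, 20 of 11659 and 18 of 7450 were called lower. No gene of the list was called higher there, and other lineages had no edgeR calls.

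Of the 18 DNA sensing and inflammasome genes in the tables, 17 were tested in classical monocytes and 3 were called higher in p21mTertCD than in p21Het, where 1.01% of all genes were. The median log2 fold change of the 17 was 0.18. The 3 were Zbp1, a sensor of Z-form nucleic acid (log2 fold change 1.39), Il18, an inflammasome cytokine (1.12), and Samhd1 (0.59). The adaptor Pycard, with which Aim2 works, was not among them. For p21mTert over p21Het the corresponding count was 1, Il18 (0.88, SE 0.16, adjusted p = 0.0443, edgeR), where 0.134% of all genes were called higher, and the median of the 17 was 0.28.

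**Figure D4:**
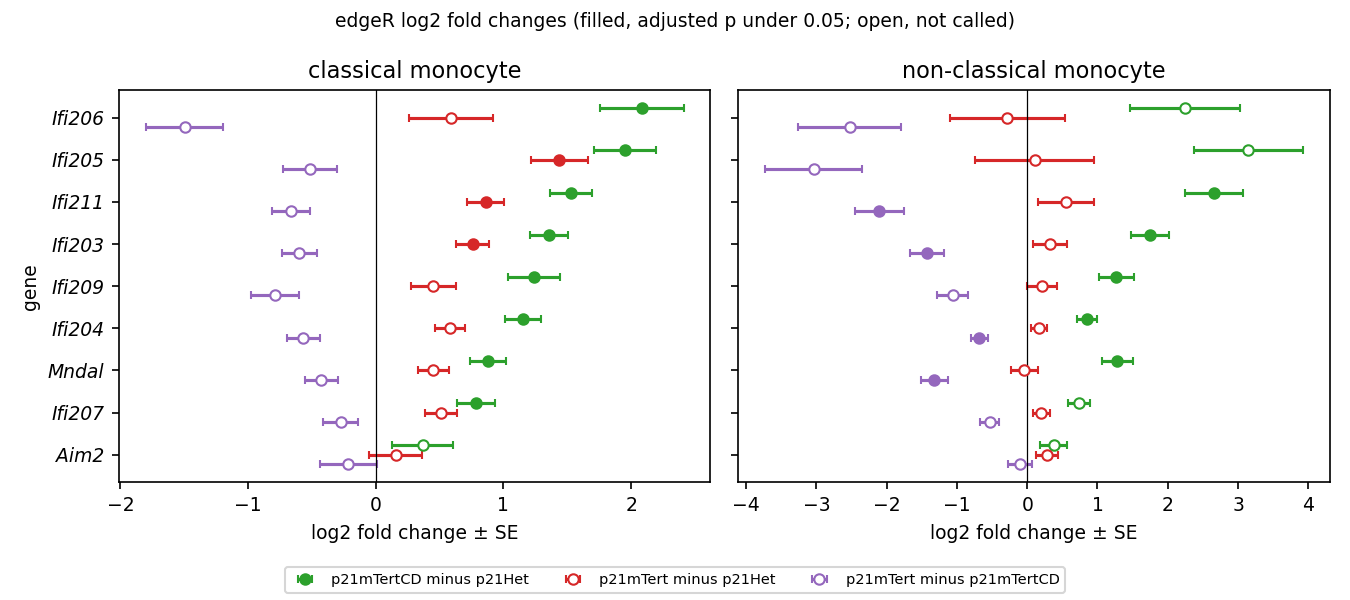
Log2 fold change ± SE (edgeR) of 9 PYHIN members in classical monocytes (left) and non-classical monocytes (right) for the 3 comparisons, filled where the adjusted p is under 0.05. For all 9 members p21mTertCD over p21Het lies to the right of p21mTert over p21Het, and Aim2 is open in every comparison.

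Non-classical monocytes, a lineage added after the values were seen, had lower levels of most members and gave calls for p21mTertCD alone. Of 9 members tested, 5 were higher in p21mTertCD than in p21Het, where 0.418% of 8606 genes were called higher. Ifi211 had 8.46, 3.52 and 10.6 CPM in p21Het, 8.81, 6.42, 17.4, 8.41 and 9.22 in p21mTert, then 35.7 and 47.4 in p21mTertCD (log2 fold change over p21Het 2.66, SE 0.41, adjusted p = 0.0107, edgeR). Both p21mTertCD libraries lay above all others. Ifi203 (1.75), Mndal (1.28), Ifi209 (1.27) and Ifi204 (0.85) were the other 4. Of these 5, Ifi211, Ifi203, Mndal and Ifi204 were also called lower in p21mTert than in p21mTertCD, where 0.453% of genes were called lower. In p21mTert against p21Het 0 of 9 passed, 0 had an unadjusted p under 0.05, and their median log2 fold change was 0.20.

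Without p21mTertCD_1, which leaves 1 p21mTertCD library with the spread taken from the other groups, 0 members were called in either comparison. The fold changes over p21Het were then 2.80 for Ifi211, 1.33 for Ifi203, 0.94 for Ifi209, 0.92 for Ifi204 and 0.89 for Mndal, and p21mTertCD_2 lay above all 3 p21Het libraries for each of them. The 5 calls over p21Het became 3 without p21mTertCD_2 or p21Het_3, and the 4 calls of p21mTert against p21mTertCD became 2 without p21mTert_4. In the later deposit alone 1 was called in p21mTertCD against p21Het. All 8 classical monocyte markers were detected in these cells and summed to 1429 to 1496 CPM in p21mTertCD against 890 to 1056 in p21Het and 901 to 1120 in p21mTert, with Ms4a6c the most abundant. The members' levels are higher in classical than in non-classical monocytes for all but Aim2. In the comparison of p21mTert with p21mTertCD, other measures also moved. Median UMIs per cell were 4936 to 7869 in p21mTert against 7992 to 8596 in p21mTertCD. Interstitial macrophage markers, 7 of them used here, summed to 10.5 to 40.1 CPM against 108 to 283, moving the same way as the called members, with C1qb the most abundant. In p21Het they spanned 9.66 to 286 CPM. Of the 7, 6 were detected in p21mTert and 5 in p21mTertCD, with Cd163 at 0 in both. The 8 club cell markers, all detected, summed to 82.1 to 129 CPM against 45.7 to 73.0. The 8 plasmacytoid dendritic markers summed to 5.17 to 28.0 CPM against 3.24 to 4.05, with 7 detected in p21mTert and 3 in p21mTertCD, where Siglech was at 0. The part of these differences in the result was not tested.

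In the remaining 10 of the 11 lineages edgeR called 0 members in any comparison, Ifi208 in p21mTert aside, which was not tested. In p21mTert against p21Het the direction varied. Fibroblasts had 0 of 6 members above a log2 fold change of 0 (median -0.84). Of the 6, 2 had an unadjusted p under 0.05 (edgeR), as did 541 of 9904 genes there. B cells had 1 of 8 above 0, alveolar macrophages 3 of 6, interstitial macrophages 4 of 7 and alveolar type 2 cells 1 of 2. Conventional dendritic cells had 8 of 8 above 0 (median 0.28), endothelial cells 7 of 9, neutrophils 6 of 7, T cells 6 of 8 and NK cells 4 of 5. For p21mTertCD against p21Het, 4 members each had an unadjusted p under 0.05 in endothelial cells, T cells and neutrophils, where 5.11%, 14.9% and 3.85% of all genes did. In neutrophils 3 of the 4 were higher, and Aim2 was lower (-0.56, SE 0.25, adjusted p = 1.00, edgeR). In T cells Ifi206 had 78.7 CPM in p21mTertCD_2 and 38.3 in p21mTertCD_1, against 22.2 to 43.1 in p21Het (log2 fold change 0.95, SE 0.30, adjusted p = 0.192, edgeR). The T cells of p21mTertCD also had more of the 9 NK markers (458 to 835 CPM against 163 to 366 in p21Het, all detected, with Gzma the most abundant). The 8 alveolar type 1 markers summed to 205 to 227 CPM there against 145 to 152, and the 8 plasma cell markers to 114 to 127 against 68.8 to 101. Other lists were lower in the T cells of p21mTertCD. The 10 endothelial markers, all detected and led by Pecam1, summed to 36.4 to 56.4 CPM against 69.5 to 101. The 8 plasmacytoid dendritic markers summed to 22.2 to 29.5 against 38.2 to 76.0, with 8 detected in p21mTertCD and 7 in p21Het, where Klk1 was at 0. The 6 basophil markers summed to 0.631 to 0.673 against 8.51 to 11.7, with Ms4a2 at 0 in p21mTertCD. The number of T cells was 1457 and 2301 in p21mTertCD against 790 to 1352 in p21Het. Their part in the result was not tested. Neutrophils had Ifi204 at 147 and 107 CPM in p21mTertCD against 39.2 to 64.1 in p21Het (1.18, SE 0.27, adjusted p = 0.194). In the cells where they were highest, Ifi207 in interstitial macrophages and Ifi205 in conventional dendritic cells did not pass. Ifi207 differed by -0.03 (SE 0.29, adjusted p = 1.00, edgeR) and Ifi205 by 0.64 (SE 0.31, adjusted p = 1.00) between p21mTertCD and p21Het.

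Other genes along the chromosome were examined in classical monocytes. Of 42 annotated within 1 Mb of the members, 9 were tested and 2 of these 9 were called higher in p21mTertCD than in p21Het, where 1.01% of all genes were. Ifi213, a further PYHIN gene between Ifi206 and Ifi209, had 10.6, 5.18 and 12.6 CPM in p21Het, 15.3 to 23.0 in p21mTert, then 48.6 and 49.4 in p21mTertCD (log2 fold change 2.32, SE 0.23, adjusted p = 1.38e-04, edgeR). It was also called against p21mTert (-1.42 for p21mTert over p21mTertCD, adjusted p = 0.0175). Ifi214 had 1.64 (SE 0.38, adjusted p = 0.0580).

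The other call was Vsig8 (chr1:172555938-172563717, plus strand), an immunoglobulin-domain gene on the far side of Aim2. Over all cells it had 6 UMIs in WT, 10 to 35 per library in p21Het and 9 to 27 in p21mTert, but 328 and 510 in p21mTertCD. In CPM these were 0.166 in WT, 0.202 to 0.517 in p21Het, 0.240 to 0.532 in p21mTert, then 6.58 and 8.93 in p21mTertCD. The genes tested between Vsig8 and Aim2, Slamf8 and Dusp23, had log2 fold changes of -0.16 (SE 0.21) and -0.44 (SE 0.35) in classical monocytes. Vsig8 lies on the same chromosome as the members, and an effect of the mTertCD allele and a sequence difference of that line on this stretch cannot be told apart in these libraries. This holds for the members' p21mTertCD differences as well.

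**Figure D5:**
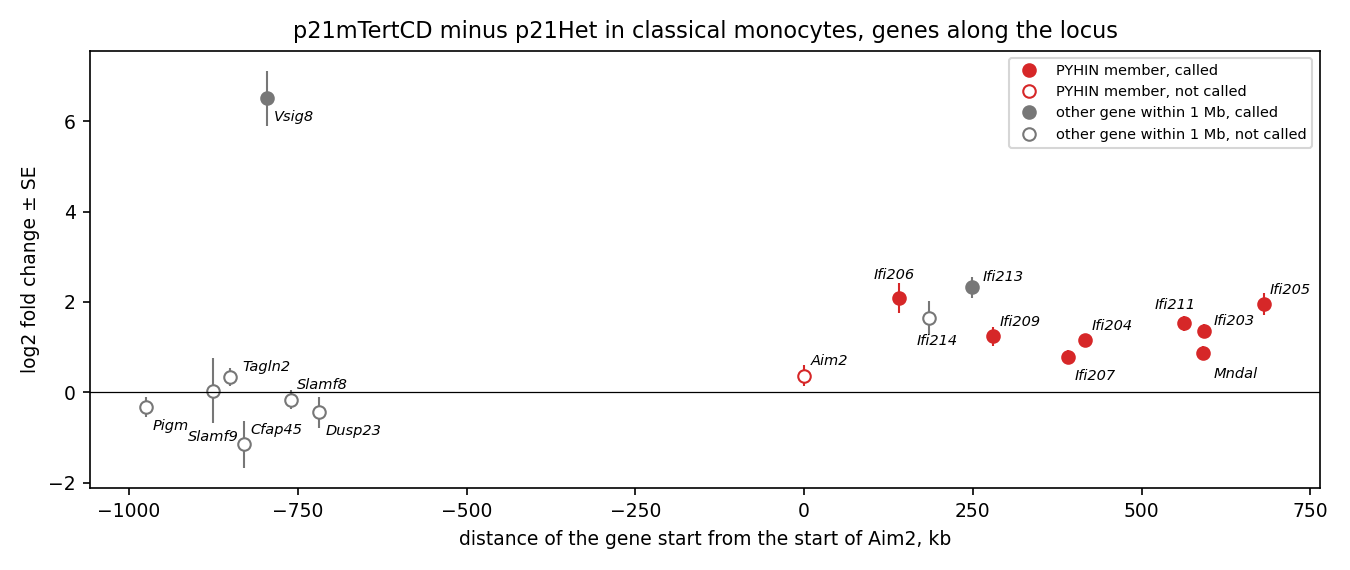
Log2 fold change ± SE of p21mTertCD over p21Het in classical monocytes against the distance of each gene's start from the start of Aim2 in kb. Members are red and other genes within 1 Mb grey, filled where called; 8 of 9 members, Ifi213 and Vsig8 are filled, and the other 7 genes are open.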

How the data were processed

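Lungs of 4 genotypes were profiled as 11 libraries. The deposited matrices hold raw UMI counts per gene and barcode. Per the submitters' processing notes they were made with Cell Ranger on mm10, and the version differs between the series' design text and the file headers. Neither the cell filters nor the scran scaling named in the design text had been applied to them, so a filter (1000 to 30000 UMIs, at most 14% mitochondrial) was applied here. A cell took a lineage with at least 3 detected markers and 2 more than any other lineage. No doublet caller was run, so doublets may remain within gates. The ungated share was 6.57% to 13.2% of cells per library.

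UMIs were summed per library and lineage, with at least 20 cells, and fitted with edgeR 4.0.16 (filterByExpr, TMM, quasi-likelihood; R 4.3.3) on the 10 libraries of the replicated groups, with group means. Genes with a Benjamini-Hochberg adjusted p under 0.05 in a lineage and comparison are called. The script was tested on simulated data. Lineage ranks used exact sign-flip tests on log2(CPM + 1), whose smallest p is 0.000977, in scipy 1.17.1. DESeq2 1.42.0, another scaling, filter, gate, a deposit term, a replicate block and libraries left out were tried as alternatives. Gene positions are from GENCODE M21 (30934 of 31053 identifiers matched), and promoters from RefSeq. The replicate numbers pair nothing in the labels.

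The members and lists were chosen with earlier results of these data known. Named are all members and, of each list and of the genes within 1 Mb, called genes with up to 3 per direction. A few values outside that rule (Ifi206, Ifi213 and Ifi214, Slamf8 and Dusp23) were picked after values were seen. Non-classical monocytes and the Cd4 and Cd8 split were added after the values were seen. Counts carry counting error only in the intervals given. The list of interferon receptor and signalling genes, and 1 interstitial macrophage marker in non-classical monocytes, are not reported here.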

Additional observations from a re-analysis of the deposited data

Results flagged for a closer look

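In the gCap cells, 1 of the 5 p21mTert libraries stood apart in Ifi208. The library p21mTert_1 had 11.7 CPM, and the other 4 had 2.14 to 4.59. It is the p21mTert library of the first deposit and is labelled 20 months old (18 in its title), and it rests on 15 UMIs. It still lay below every p21Het, p21mTertCD and WT library. Among the 19 groups of libraries examined, this was the 1 in which a library stood apart by its gap, where chance alone gives about 1 in 20. The flag is thus near what chance gives, and nothing is concluded from it.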

How the results depend on the processing

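The count of members other than Ifi208 called in p21mTert against p21Het, 3, was 10 with no filter on low counts, 5 with DESeq2 and 1 with a looser gate, and 0 to 3 with 1 library left out. The count in p21mTert against p21mTertCD, 0, was 8 with no filter, 5 with DESeq2, 1 with a deposit term, 1 with a looser gate, and 0 to 3 with 1 library left out. The count in p21mTertCD against p21Het, 8, was 5 to 8 with 1 library left out. The share of all genes called under these settings is not given here, apart from DESeq2 in p21mTert against p21mTertCD. A change in the members therefore cannot be told apart from a change in calls over all genes. The cause of these differences was not tested. A replicate block could be fitted over 5 libraries of the later deposit, and gave 4, 1 and 6 calls. The same libraries with no block gave 0, 0 and 4. Deviations of equally numbered p21Het and p21mTert libraries correlated at -0.551 to 0.036 over 11 lineages, so the numbers were not taken to pair them. Ifi208 in p21mTertCD against p21Het changed sign in endothelial cells (0.0224 under the replicate block, 0.0136 in its libraries with no block). Its sign also changed in T cells, from -0.10 with all libraries. There it was 0.0165 in the later deposit alone, 0.63 under the block, 0.59 with no block, and -1.02 to 0.47 with 1 library left out. The 5 libraries of the block hold p21mTertCD_2, the higher of the pair in endothelial and T cells, and neither p21mTertCD_1 nor p21Het_1. Fits with and without the block there rest on 1 p21mTertCD library. The 7 members with a leading lineage became 5 to 8 over 17 alternatives. Few UMIs of Ifi208 were counted in NK cells and in myeloid cells, so its levels there carry a wide counting error.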
